A study of Mus musculus with 8 samples.

Results

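The troponin genes are the 8 mouse genes Tnni1, Tnni2, Tnni3, Tnnt1, Tnnt2, Tnnt3, Tnnc1 and Tnnc2, taken by symbol from a table of 54752 gene IDs. They were followed in RNA from isolated cardiomyocytes of mice with the genotype Carm1fl/fl, in 8 libraries that form 4 groups of 2. The KO groups at 3w and 1w received AAV9-Cre, an adeno-associated virus (AAV) carrying Cre recombinase, which removes the floxed part of Carm1, a gene for an arginine methyltransferase. The control groups at 3w and 1w carried the same floxed alleles and received AAV9-GFP, which carries a fluorescent protein in place of Cre. Injection was at postnatal day 3 or 4 in the 3w libraries and at day 1 or 2 in the 1w libraries, and the labels do not say whether 3w and 1w count from birth or from injection. The labels call the hearts mosaic and name no sorting of infected cells, so the KO libraries can hold RNA of uninfected cardiomyocytes. No group had Cre without floxed alleles, so Cre itself and loss of Carm1 cannot be told apart. The labels give the 2 libraries of each group different days of injection, which if read as given places them in different mice. They do not say so in words, and each p-value reflects library-to-library spread that may be technical in part.

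Troponin is the calcium switch of the thin filament of striated muscle. Troponin C binds calcium, troponin I holds the filament off when calcium is low, and troponin T ties the complex to tropomyosin. Troponin I and T each have a cardiac, a slow skeletal and a fast skeletal gene (Tnni3, Tnni1 and Tnni2; Tnnt2, Tnnt1 and Tnnt3), while Tnnc1 serves both heart and slow muscle and Tnnc2 serves fast muscle. The fetal and newborn mouse heart uses slow skeletal troponin I from Tnni1, which gives way to cardiac troponin I from Tnni3 after birth. Cardiac troponin I carries an amino-terminal extension with target sites of protein kinase A that the slow skeletal form lacks.

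The genes at the centre of the exchange, Tnni1 and Tnni3, and the cardiac troponin T gene are shown by 1 promoter window each, since their levels moved in different directions with age. Each window runs 5′ to 3′ on the gene's own strand from 250 bases before a transcript start to 50 bases after it (RefSeq, GRCm38.p6), and capitals mark matches to CATTCCT, the site of TEAD factors, and to GATAA, the core of GATA sites, which reads TTATC where it lies on the other strand.
Tnni1, chr1:135799171-135799470, plus strand: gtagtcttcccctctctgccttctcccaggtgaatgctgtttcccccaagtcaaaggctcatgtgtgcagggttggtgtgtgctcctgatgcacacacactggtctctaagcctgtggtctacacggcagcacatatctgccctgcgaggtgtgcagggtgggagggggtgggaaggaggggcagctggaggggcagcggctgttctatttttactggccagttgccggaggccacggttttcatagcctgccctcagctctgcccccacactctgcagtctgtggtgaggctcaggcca
Tnni3, chr7:4522479-4522778, minus strand: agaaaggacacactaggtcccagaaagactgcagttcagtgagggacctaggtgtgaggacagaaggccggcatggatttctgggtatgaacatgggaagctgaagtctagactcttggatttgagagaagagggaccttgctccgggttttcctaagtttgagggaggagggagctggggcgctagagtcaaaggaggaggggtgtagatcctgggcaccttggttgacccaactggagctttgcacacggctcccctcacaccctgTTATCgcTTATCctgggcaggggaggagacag
Tnnt2, chr1:135836084-135836383, plus strand: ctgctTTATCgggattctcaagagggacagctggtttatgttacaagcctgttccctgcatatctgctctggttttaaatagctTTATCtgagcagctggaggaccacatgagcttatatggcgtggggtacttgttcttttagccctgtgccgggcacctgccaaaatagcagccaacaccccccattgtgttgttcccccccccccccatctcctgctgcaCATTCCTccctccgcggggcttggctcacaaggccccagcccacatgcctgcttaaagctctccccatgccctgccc
The Tnnt2 window held CATTCCT with its first base 27 bases before the start and GATAA on the other strand at 245 and 166 bases before it. The Tnni3 window held 2 matches to GATAA, with first bases at positions 19 and 26 when the start is position 1, and the Tnni1 window held neither motif. Across 32851 promoter windows of the same length, read on both strands, CATTCCT occurred in 5.36% and GATAA in 25.4%. RefSeq windows were at hand for 6 of the 8 troponin genes, 8 windows in all. Of these, 1 held CATTCCT and 2 held GATAA, while the nuclear receptor half-site AGGTCA was in 0 (16.3% of all windows), the CArG box in 0 (1.63%) and the MEF2 site in 0 (3.19%). The E-box CANNTG, the letters bound by basic helix-loop-helix factors, was in 8 of the 8, against 72.3% of all windows, and no match of 1 motif in the 3 printed windows overlapped a match of another. These matches describe letters and were not set against binding data.

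The libraries held between 20818285 and 53671626 counts, of which 40.7 to 47.8% fell on mitochondrially encoded genes. Carm1 stood at 17.3 to 22.4 CPM (counts scaled to a common library total) in the 4 KO libraries, against 39.1 to 40.5 CPM in the 4 control libraries (log2 fold change -1.17 ± 0.060 at 3w and -0.83 ± 0.055 at 1w). These counts take in all exons, including those outside the deleted part. Counts summed over 4 genes of the Y chromosome (Ddx3y, Eif2s3y, Uty, Kdm5d) were 3 and 2 in 3w KO, 6765 and 4814 in 3w control, 5025 and 4282 in 1w KO, and 1 and 0 in 1w control. KO against control at 1 age, and 3w against 1w in 1 genotype, therefore cannot be told apart from the split in these transcripts. The means over both ages or both genotypes hold them in equal parts, and the difference of the KO effects between ages holds them fully. Below, levels are CPM after TMM scaling and differences are log2 fold changes ± SE. Each adjusted p is from the quasi-likelihood test of edgeR after Benjamini-Hochberg adjustment over 14665 genes, unless another tool is named, and a gene is called where it is under 0.05.

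Both troponin C genes were listed at 0 in all 8 libraries. Tnnc1 (GRCm38, chromosome 14, 31208312 to 31211729, plus strand) lies wholly within the span of Nisch on the opposite strand, although its exons overlap no other exon. Among protein-coding genes placed in this way, 676 of 677 (99.9%) were listed at 0 in every library, the exception being Anxa1 with 2109 counts in all, against 3344 of 11812 (28.3%) genes whose span overlaps no other gene. The level of Tnnc1, the only troponin C gene of heart muscle, therefore cannot be read from these counts. Tnnc2 (chromosome 2, 164777161 to 164779967, minus strand) shares 59.2% of its span with Ube2c, which takes in 77.6% of its exon length. A count of 0 allows up to 0.0559 to 0.144 CPM (3 counts of a library's total), for counting error only and for the part of Tnnc2 outside that span. The actin genes Actc1 and Acta1, another pair exchanged during heart development, were also listed at 0 with spans inside other genes, so that pair could not be followed.

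The other 6 troponin genes were counted and passed the filter on low counts. Tnni1 (chromosome 1, 135779434 to 135810989) and Tnnt2 (135836354 to 135852260) lie on the plus strand of the same chromosome with Lad1 between them. Tnnt1 (chromosome 7, 4504570 to 4516382) and Tnni3 (4518305 to 4524229) lie on the minus strand, 1922 bases apart. Tnni2 (chromosome 7, 142441808 to 142444410) and Tnnt3 (142498836 to 142516009) lie on the plus strand with Lsp1 between them. Dnaaf3 overlaps 21.9% of the span of Tnni3 on the same strand, and Prr33 overlaps 46.2% of the span of Tnnt3 on the opposite strand. How far this lowered the counts of Tnni3 and Tnnt3 was not tested. Dnaaf3 itself was at 0.0674 to 0.283 CPM in all libraries.

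**Figure D1:**
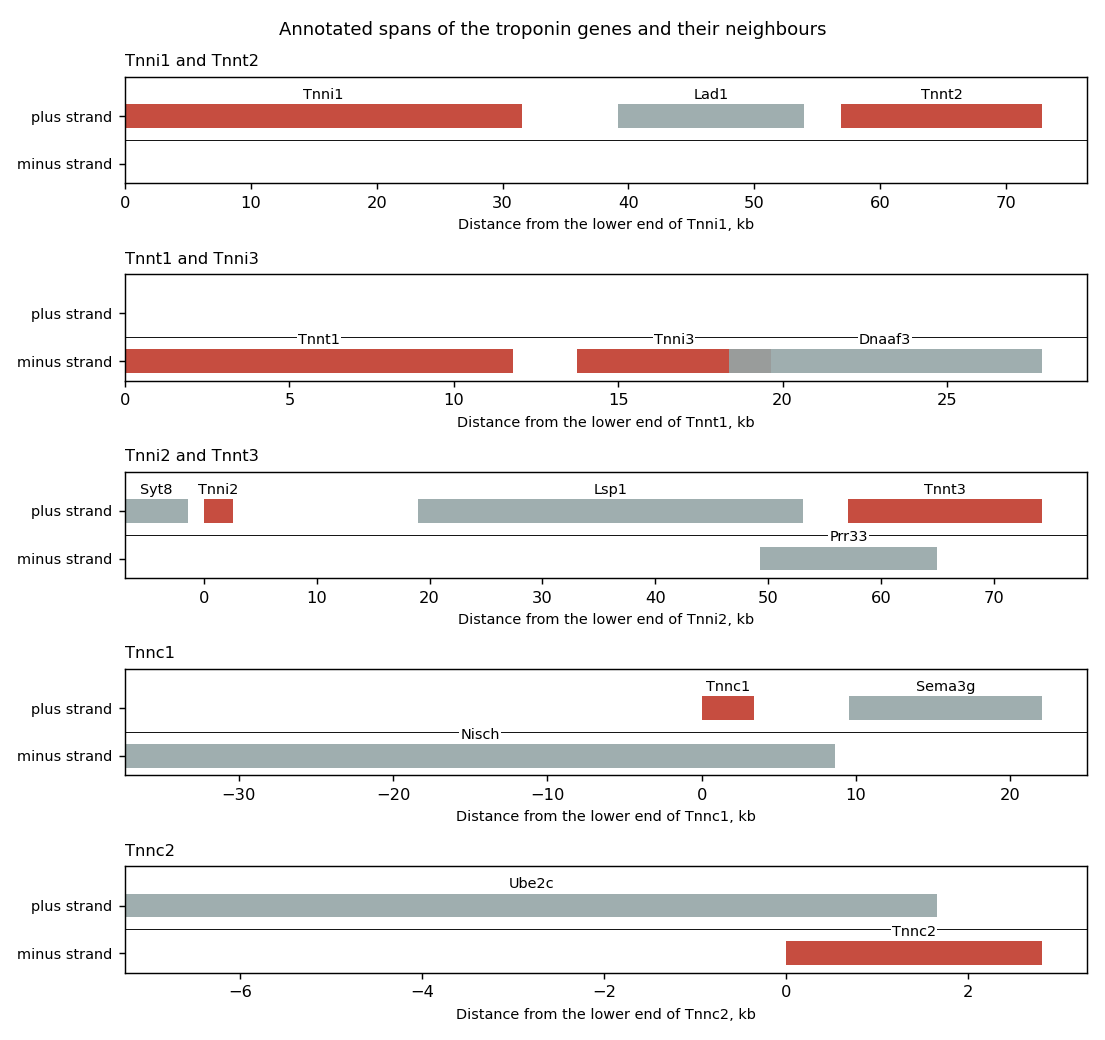
Annotated spans of the troponin genes (red) and neighbouring protein-coding genes (grey) by strand, with the distance in kilobases from the lower end of the first troponin gene in each panel on the horizontal axis. Tnnc1 lies inside the span of Nisch, and 59.2% of the span of Tnnc2, 46.2% of that of Tnnt3 and 21.9% of that of Tnni3 are shared with a neighbour.

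Per kilobase of annotated exon, the cardiac genes led in every group. In KO at 3w the mean levels were 1696 CPM per kb for Tnni3, 780 for Tnnt2, 6.29 for Tnnt1, 3.18 for Tnni2, 1.09 for Tnni1 and 0.920 for Tnnt3. The 3w control group had the same order, with 2524 CPM per kb for Tnni3, 1099 for Tnnt2, 6.68 for Tnnt1, 2.03 for Tnni2, 0.104 for Tnni1 and 0.0600 for Tnnt3. At 1w Tnni1 came next after Tnnt2, at 88.3 CPM per kb in KO and 147 CPM per kb in control, above Tnnt1 (7.98 and 9.59), Tnni2 (1.41 and 0.779) and Tnnt3 (0.437 and 0.147). Neighbours in these orders did not overlap between libraries, except Tnni1 and Tnnt3 in 3w control. The place of Tnni3 above Tnnt2 rests on the length used. Over the annotated exons of all transcripts Tnnt2 has 7752 bases and Tnni3 has 2063, but their principal transcripts have 1097 and 912 bases. Per kilobase of principal transcript Tnnt2 was the higher, with 5513 against 3836 CPM per kb in 3w KO and 4705 against 2487 CPM per kb in 1w control.

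**Figure D2:**
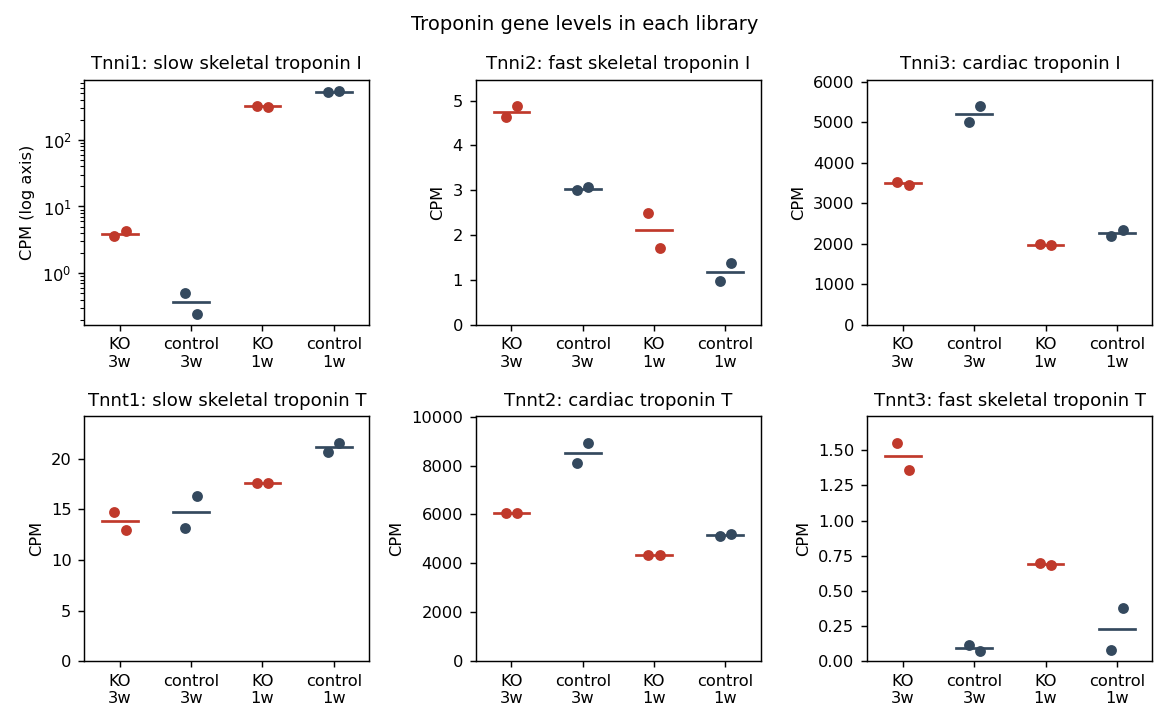
Levels in CPM (vertical axis, logarithmic for Tnni1 and starting at 0 for the other genes) of the 6 counted troponin genes in KO and control at 3w and 1w, where points are libraries and lines are means of 2. Tnni1 lies at 315 to 542 CPM in the 1w libraries and at 0.247 to 4.22 CPM in the 3w libraries, with KO above control at 3w and below it at 1w.

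Many genes of the table were called in each comparison. Tnnt3 passed the filter on low counts only through its level in KO, so it is left out of the counts here and described by its values. Of the other 5 counted troponin genes, 1 was higher and 4 lower in KO than in control at 1w, where 43% of all genes tested were called (23% higher, 20% lower). At 3w 2 were higher, 2 lower and 1 was not called, where 49.2% of all genes were called (24.4% higher, 24.8% lower). In 3w against 1w 3 were higher and 2 lower in KO, beside 67.9% of all genes (33.2% higher, 34.6% lower), and likewise 3 were higher and 2 lower in control, beside 70.8% (34.9% higher, 36% lower). In the mean of both ages 2 were higher and 3 lower in KO than in control, beside 52.8% (27.5% higher, 25.3% lower). In the mean of both genotypes 3 were higher and 2 lower at 3w than at 1w, beside 76.8% (37.4% higher, 39.4% lower). For the KO effect at 3w less that at 1w, 1 was higher and 2 lower, beside 35.6% (17.6% higher, 17.9% lower). With backgrounds this high, the counts say little about the troponin genes, and the sizes of the changes are given instead.

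Tnni1, the slow skeletal and newborn troponin I gene, was nearly gone at 3w. It had 3.60 and 4.22 CPM in 3w KO and 0.501 and 0.247 CPM in 3w control, against 321 and 315 CPM in 1w KO and 518 and 542 CPM in 1w control. The raw counts behind these levels were 102 and 121 in 3w KO and 21 and 7 in 3w control, against 14267 and 11912 in 1w KO and 12331 and 19815 in 1w control. The log2 fold change of 3w against 1w was -6.34 ± 0.058 in KO (adjusted p = 4.9e-62) and -10.36 ± 0.076 in control (adjusted p = 1.1e-66, edgeR), or 81.2-fold and 1318-fold lower. By size these were the 31st largest change in KO and the 6th largest in control among 14665 genes, with no overlap between ages. The level in KO was below control at 1w and above it at 3w. KO was 1.67-fold lower at 1w (-0.74 ± 0.034, adjusted p = 3.6e-26), but 9.74-fold higher at 3w (3.28 ± 0.18, adjusted p = 1.9e-23, edgeR), each time without overlap. The 3w control level rests on few reads. KO at 3w was 3.96 above control on the log2 scale without the first 3w control library and 2.93 without the second. The fall of Tnni1 in control was -11.03 without the first and -10.01 without the second. The KO effect at 3w exceeded that at 1w by 4.02 ± 0.18 (adjusted p = 4.7e-27, edgeR). That difference was 4.71 without the first 3w control library and 3.69 without the second. The mean of the 2 opposite changes, 1.27 ± 0.094 (adjusted p = 1.3e-17), describes neither age. With age and KO as additive terms it was 0.12 ± 0.67 (adjusted p = 0.91, edgeR).

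Tnni3, the cardiac troponin I gene, rose with age and stood lower in KO. The levels were 3537 and 3459 CPM in 3w KO, 5012 and 5404 CPM in 3w control, 1998 and 1960 CPM in 1w KO, and 2188 and 2349 CPM in 1w control. KO lay below control at both ages without overlap. Between 3w and 1w the log2 fold change was 0.82 ± 0.035 in KO (adjusted p = 1.7e-13) and 1.20 ± 0.035 in control (adjusted p = 4.1e-16, edgeR). KO against control was -0.20 ± 0.035 at 1w (adjusted p = 0.00015), while at 3w it was -0.57 ± 0.035 (adjusted p = 1.1e-10), and the difference between the ages, -0.38 ± 0.049, was called (adjusted p = 6.9e-06, edgeR). With limma-voom the change at 1w was of the same size and missed the threshold (adjusted p = 0.058).

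Markers of cardiomyocytes and of other cells moved in the same libraries. The counts of markers called are read beside the share of all genes called between KO and control, 49.2% at 3w and 43% at 1w. In the cardiomyocyte list 0 of 8 tested markers were higher and 6 lower in 3w KO, and 1 was higher and 5 lower in 1w KO. Its summed level was 65113 to 65783 CPM in 3w KO, 79395 to 81945 CPM in 3w control, 37737 to 37989 CPM in 1w KO and 40652 to 41198 CPM in 1w control. All 7 tested fibroblast markers were higher in KO at both ages, with summed levels of 613 to 623 CPM in 3w KO and 277 to 278 CPM in 3w control, and 2264 to 2288 CPM in 1w KO and 1226 to 1228 CPM in 1w control. Atrial markers summed to 624 to 637 CPM in 3w KO and 222 to 229 CPM in 3w control (3 of 8 higher, 5 lower), and to 636 to 642 CPM in 1w KO and 87.7 to 89.9 CPM in 1w control (8 higher). Most of the 3w KO sum was Nppa, the gene of atrial natriuretic peptide, which had 590.1 and 577 CPM in 3w KO and 104 and 101 CPM in 3w control. Bmp10, a growth factor gene of atrial muscle, had 1 and 3 counts in 3w KO and 828 and 590 counts in 3w control. The atrial light chain genes Myl7 (-2.89 ± 0.12) and Myl4 (-1.76 ± 0.075) and the sarcolipin gene Sln (-3.95 ± 0.23) were lower in 3w KO too. At 1w Bmp10, Myl7, Myl4 and Sln changed in the opposite direction, while Nppa was again higher in KO (2.46 ± 0.038). Bmp10 had 7990 and 6797 counts in 1w KO and 3 and 4 counts in 1w control. Sln (4.49 ± 0.15), Myl7 (3.56 ± 0.063) and Myl4 (3.296 ± 0.056) were higher in 1w KO too. At 3w between KO and control and then at 1w, the markers higher and lower were 7 and 0, then 4 and 2, of 7 for smooth muscle, 4 and 1, then 6 and 0, of 6 for endothelium, and 6 and 0 at both ages of 6 for macrophages. They were 3 and 1, then 2 and 1, of 6 for the conduction system, 2 and 0, then 0 and 3, of 4 for red cells, and 0 and 3, then 3 and 0, of 4 for epicardium. Among the 3 conduction genes higher at 3w, Gja5 passed the filter on low counts only through its level in KO. In bulk RNA, fewer cells of a type and less RNA per cell cannot be told apart, and the part of these cells in the troponin differences was not tested.

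Tnni2, the fast skeletal troponin I gene, was a minor transcript that was higher in KO at both ages. It had 4.63 and 4.88 CPM in 3w KO, 3.00 and 3.07 CPM in 3w control, 2.49 and 1.72 CPM in 1w KO, and 0.965 and 1.37 CPM in 1w control, where 23 and 50 reads were counted. KO and control did not overlap at either age. KO against control was 0.65 ± 0.16 at 3w (adjusted p = 0.00042), while at 1w it was 0.82 ± 0.21 (adjusted p = 0.0012), and 0.73 ± 0.13 in the mean of both ages (adjusted p = 3.3e-06, edgeR). Without the first KO library at 1w, the change at 1w was 0.51 and missed the threshold (adjusted p = 0.13). In 3w against 1w it was higher by 1.16 ± 0.16 in KO and by 1.33 ± 0.21 in control.

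The share of the troponin I genes shows the exchange within each library, free of library scaling. Tnni1 made up 0.0582 and 0.0697% of troponin I counts per kb in 3w KO and 0.00572 and 0.00262% in 3w control, against 8.40 and 8.43% in 1w KO and 11.9 and 11.7% in 1w control. The 95% Wilson intervals, for counting error only, reached from 0.0480 to 0.0833% over both KO libraries at 3w and from 0.00127 to 0.00874% over both control libraries at 3w, and did not touch. Tnni3 took 99.8 and 99.7% in 3w KO and 99.9% in each control library at 3w, against 91.4 and 91.5% in 1w KO and 88.0 and 88.3% in 1w control. The ratio of Tnni3 to Tnni1 counts per kb was 1714 and 1431 in 3w KO and 17468 and 38126 in 3w control, against 10.9 and 10.8 in 1w KO and 7.38 and 7.57 in 1w control. KO hearts thus had the smaller Tnni1 share at 1w and the larger share at 3w. The share of Tnni2 was 0.180 and 0.194% in 3w KO and 0.0825 and 0.0783% in 3w control, against 0.157 and 0.111% in 1w KO and 0.0535 and 0.0708% in 1w control. At 3w it was therefore Tnni2, not Tnni1, that held most of the skeletal troponin I in both genotypes.

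In percentage points the Tnni1 share differed by -3.38 between KO and control at 1w and by 0.0598 at 3w, by -8.35 between 3w and 1w in KO and by -11.8 in control. With 2 libraries against 2 the exact two-sided permutation test cannot go below p = 0.333, which each of these differences reached. In the mean of both ages the Tnni1 share was 1.66 points lower in KO than in control (-1.66, exact permutation p = 0.333, where permuting within ages can reach 0.0556). The Tnni2 share was higher in KO by 0.0891 points in that mean, with the smallest p the design allows (exact permutation p = 0.0556).

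**Figure D3:**
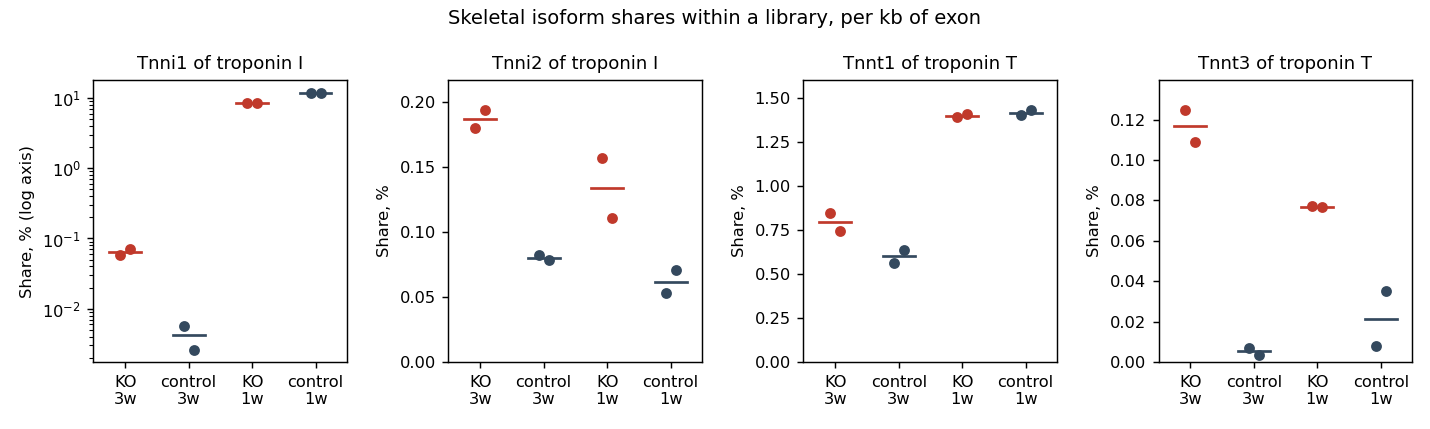
Share in percent (vertical axis, logarithmic for Tnni1 and starting at 0 for the others) of each skeletal isoform in the troponin I or troponin T counts per kb of exon of a library, for KO and control at 3w and 1w, with points for libraries and lines for means of 2. The Tnni1 share is lower in the 3w than in the 1w libraries in both genotypes, and is higher in KO at 3w and lower in KO at 1w, while the Tnni2 and Tnnt3 shares are higher in KO at both ages.

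Tnnt2, the cardiac troponin T gene, had the highest CPM of the troponin genes and, like Tnni3, was higher at 3w than at 1w and lower in KO at both ages. It had 6042 and 6055 CPM in 3w KO, 8100 and 8933 CPM in 3w control, 4359 and 4334 CPM in 1w KO, and 5112 and 5211 CPM in 1w control. KO lay below control in all libraries of the same age. KO against control gave a log2 fold change of -0.49 ± 0.032 at 3w (adjusted p = 2.9e-11), while at 1w it was -0.25 ± 0.031 (adjusted p = 1.7e-06, edgeR). In 3w against 1w it was 0.48 ± 0.032 in KO (adjusted p = 2e-11) and 0.72 ± 0.032 in control (adjusted p = 1.2e-14, edgeR). Scaling by library totals alone moves the median of all genes by -0.43 in that comparison in KO and by -0.58 in control, and on that scale the change of Tnnt2 was 0.05 in KO (adjusted p = 0.1) and 0.14 in control (adjusted p = 8.5e-06). The KO effects at 3w and 1w differed by -0.25 ± 0.044 (adjusted p = 0.00017, edgeR). That difference missed the threshold with limma-voom (adjusted p = 0.087). It also missed it with library totals alone (-0.094 ± 0.039, adjusted p = 0.051, edgeR).

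Tnnt1, the slow skeletal troponin T gene, was lower at 3w than at 1w, and lower in 1w KO. It had 14.7 and 13.0 CPM in 3w KO, 13.1 and 16.3 CPM in 3w control, 17.5 and 17.6 CPM in 1w KO, and 20.7 and 21.6 CPM in 1w control. The groups at 3w overlapped and those at 1w did not. KO against control was -0.27 ± 0.074 at 1w (adjusted p = 0.0024), while at 3w it was -0.07 ± 0.085 (adjusted p = 0.54, edgeR). With library totals alone the change at 1w was -0.17 ± 0.075 and missed the threshold (adjusted p = 0.062, edgeR). The fall of Tnnt1 with age, -0.34 ± 0.080 in KO (adjusted p = 0.00018) and -0.55 ± 0.078 in control (adjusted p = 1.9e-08), was far smaller than that of Tnni1, the slow skeletal troponin I gene. At 3w the change between KO and control without the first control library was -0.24. The mean over both ages was -0.17 ± 0.056 (adjusted p = 0.01, edgeR). It missed the threshold with DESeq2 (adjusted p = 0.059) and in the additive fit (adjusted p = 0.13, edgeR). With library totals alone that mean was 0.0055. It was -0.14 without the second KO library at 3w and -0.12 without the second control library at 3w.

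Tnnt3, the fast skeletal troponin T gene, had few reads and more of them in KO at both ages. The counts were 44 and 39 in 3w KO, 5 and 2 in 3w control, 31 and 26 in 1w KO, and 2 and 14 in 1w control. In CPM these were 1.55 and 1.36 in 3w KO, 0.119 and 0.0707 in 3w control, 0.696 and 0.688 in 1w KO, and 0.0839 and 0.383 in 1w control. KO and control did not overlap at either age, but the 2 control libraries at 1w lay far from each other. The gene reached the filter's level of 0.317 CPM in the 4 KO libraries and the second control library at 1w, so it would not have been fitted without its level in KO. Its differences between KO and control are therefore given as a description with no test. They were 3.82 ± 0.45 at 3w, or 14.1-fold, and 1.39 ± 0.42 at 1w, where leaving out the first control library gave 0.85 and leaving out the second gave 2.99. In 3w against 1w, Tnnt3 was 1.07 ± 0.29 higher in KO (adjusted p = 0.0011, and 0.054 in DESeq2), while in control the difference of -1.37 ± 0.66 was not called (adjusted p = 0.057). That difference in control was -1.90 without the first control library at 1w (adjusted p = 0.0093) and 0.24 without the second (adjusted p = 0.87). Without that second library the change of the KO effect between the ages, 2.44 ± 0.72 over all libraries and given with no test, was 0.83.

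Within troponin T the cardiac gene held 98.5 to 99.4% of counts per kb in every library. Tnnt1 took 0.849 and 0.749% in 3w KO and 0.567 and 0.639% in 3w control, against 1.39 and 1.41% in 1w KO and 1.40 and 1.43% in 1w control. Tnnt1 itself was not called at 3w, and its share was 0.196 points higher in KO, where Tnnt2 was lower (exact permutation p = 0.333, the smallest possible). Tnnt3 took 0.125 and 0.109% in 3w KO and 0.00717 and 0.00385% in 3w control, against 0.0771 and 0.0766% in 1w KO and 0.00793 and 0.0354% in 1w control. In the mean of both ages the share of Tnnt3 was 0.0833 points higher in KO, given as a description with no test. The cardiac gene thus kept nearly all of troponin T at both ages.

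Troponin I made up 68.6 and 68.1% of troponin I plus T counts per kb in 3w KO and 69.8 and 69.3% in 3w control, against 65.0 and 64.7% in 1w KO and 64.3 and 65.4% in 1w control. The difference between KO and control was -1.23 points at 3w and -0.0275 points at 1w, where the groups overlapped. Between 3w and 1w it was 3.51 points higher in KO and 4.72 points higher in control. This balance leaves out troponin C, and its level rests on the lengths used. Per kilobase of principal transcript troponin I made up a mean of 41.0% in 3w KO, 42.4% in 3w control, 38.1% in 1w KO and 38.4% in 1w control, so that it was the smaller part. In raw counts the means were 36.6% in 3w KO, 37.9% in 3w control, 34.5% in 1w KO and 35.1% in 1w control.

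**Figure D4:**
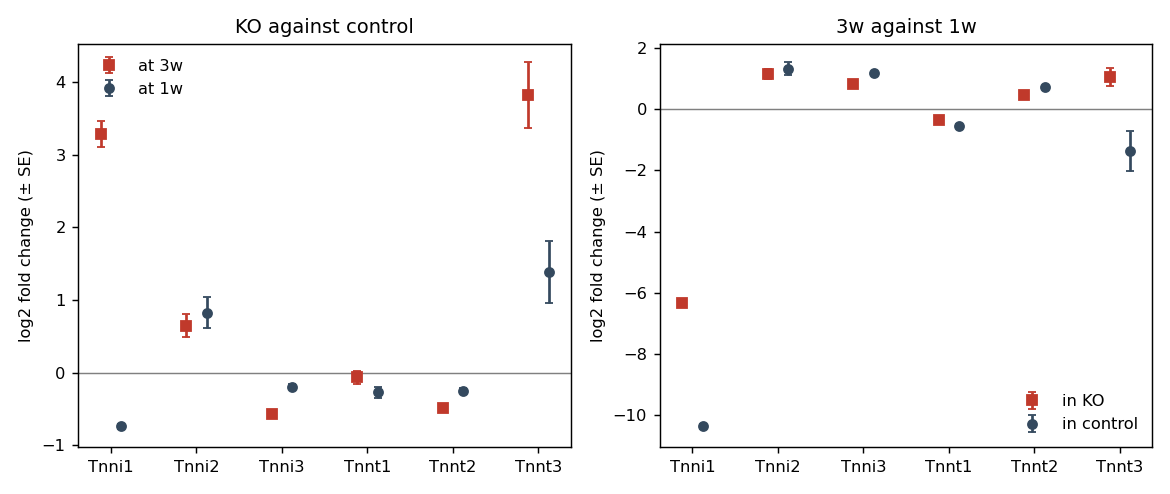
Log2 fold changes (points, with bars of ± 1 SE from edgeR) of the 6 counted troponin genes in KO against control at 3w and 1w (left) and in 3w against 1w in KO and control (right). Tnni1 is 3.28 higher in 3w KO and 0.74 lower in 1w KO, and its fall with age is -6.34 in KO and -10.36 in control.

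Skeletal muscle markers were set beside the skeletal troponin genes. Of 19 markers 9 passed the filter on low counts, of which Ryr1, Atp2a1 and Myh8 passed only through their levels in KO. The differences of these genes between KO and control are given as a description with no test. Of the others, Mylpf, Mybpc2 and Casq1 were higher and Myl1, Cacna1s and Ckm lower in 3w KO (24.4% of all genes higher, 24.8% lower). In 1w KO 3 of the others were higher and 2 lower (23% and 20%). The summed level was 1739 to 1827 CPM in 3w KO, 2605 to 2663 CPM in 3w control, 1078 to 1092 CPM in 1w KO and 1177 to 1205 CPM in 1w control, and most of it was Ckm, muscle creatine kinase, which heart also expresses. Mylpf, the fast skeletal regulatory myosin light chain, had 5.12 and 4.74 CPM in 3w KO and 0.596 and 0.424 CPM in 3w control (3.22 ± 0.22, adjusted p = 1.7e-19). Atp2a1, the fast skeletal calcium pump, had 6.21 and 5.72 CPM in 3w KO and 0.334 and 0.424 CPM in 3w control (3.99 ± 0.23). Ryr1, the skeletal calcium release channel, had 0.565 and 0.558 CPM in 3w KO and 0.0477 and 0 CPM in 3w control. Mybpc2 and Casq1 were higher in 3w KO by 0.84 ± 0.057 and 0.21 ± 0.050, and Myh8, a perinatal skeletal myosin gene, had 3 counts in each 3w KO library and 0 in each 3w control library. The other tested markers were lower in 3w KO, namely Myl1, a fast skeletal light chain gene (-0.54 ± 0.066), Cacna1s, the skeletal calcium channel gene (-1.40 ± 0.24), and Ckm (-0.62 ± 0.027). The skeletal markers thus stood on both sides of control in 3w KO. The markers that could not be tested had few counts. Pax7 had 0 counts in all libraries, Myh4 had 0 to 2, Myog and Myod1 had 0 to 3, and Myh1 and Myh3 had 0 to 4. Pvalb had 0 to 10 counts, and Actn3 and Mybpc1 had 2 to 13. Myh2, a fast skeletal myosin heavy chain, had 5 and 4 counts in 3w KO and 8 and 2 in 3w control. The part of skeletal muscle RNA in the levels of Tnni2 and Tnnt3 was not tested.

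Partners of troponin on the thin filament changed in both directions. Of 22 such genes 19 were tested, the other 3 being listed at 0 with spans inside other genes. In KO against control 8 were higher and 7 lower at 3w (49.2% of all genes called; median log2 fold change 0.06, against 0.01 over all genes). At 1w 6 were higher and 8 lower (43% of all genes called; median -0.03, against 0.02). Among those with a mean of at least 10 CPM, Tpm2, the beta tropomyosin gene, rose most in KO at both ages, while below that level Lmod1 rose more at 3w (3.24 ± 0.31). It had 21.6 and 21.4 CPM in 3w KO and 3.24 and 2.83 CPM in 3w control (2.80 ± 0.094), and 47.0 and 49.5 CPM in 1w KO and 20.1 and 21 CPM in 1w control (1.23 ± 0.058). Tpm1, the main cardiac tropomyosin gene, was lower in 3w KO by a log2 fold change of -0.26. The largest falls in KO above that level were those of Capza2, a subunit of the actin capping protein, at 3w (-0.37 ± 0.039), and of the nebulette gene Nebl at 1w (-0.29 ± 0.031), where Tmod4, below it, fell by -0.80 ± 0.17. In 3w against 1w 12 were higher and 6 lower in KO (67.9% of all genes called), and 13 were higher and 6 lower in control (70.8%). Here the intercalated disc gene Xirp2 rose most, by 1.82 ± 0.038 in KO and 1.66 ± 0.039 in control, and Tpm4, a tropomyosin gene of the cytoskeleton, fell most, by -2.06 ± 0.088 in KO and -3.00 ± 0.10 in control.

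Kinases and phosphatases that act on thin filament proteins, with their regulatory subunits, were called in both directions. Of 16 tested, 3 were higher and 8 lower in 3w KO (median -0.08, against 0.01 over all genes; 24.4% of all genes were higher and 24.8% lower), and 2 were higher and 12 lower at 1w (median -0.24, against 0.02; 23% higher and 20% lower). Prkaca, the catalytic alpha subunit of protein kinase A that phosphorylates cardiac troponin I, was lower in KO by -0.26 ± 0.032 at 3w and by -0.18 ± 0.032 at 1w. Prkar1a, a regulatory subunit of that kinase, was the gene with the largest rise in 3w KO among those of at least 10 CPM (0.16 ± 0.031). Below that level Prkcd rose more in 3w KO (1.15 ± 0.12), and Ppp1r1a fell there by -1.71 ± 0.35. The 2 genes higher in 1w KO, Pak1 (2.10 ± 0.33) and Prkcd (0.47 ± 0.094), were also below 10 CPM. Tnni3k, a kinase named for its interaction with cardiac troponin I, had 118 and 121 CPM in 3w KO and 165 CPM in each control library at 3w (-0.46 ± 0.036). Above the same level Prkce, protein kinase C epsilon, fell most in 1w KO (-0.61 ± 0.053), and below it the phosphatase inhibitor gene Ppp1r1a was at -0.65 ± 0.18. In 3w against 1w 7 were higher and 5 lower in KO (67.9% of all genes called), and 5 were higher and 6 lower in control (70.8%). Above 10 CPM Prkar1a fell most (-0.37 ± 0.030 in KO and -0.95 ± 0.030 in control), while below it Ppp1r1a, Prkcd and, in KO, Pak1 fell more, Ppp1r1a by -2.73 ± 0.30 in KO and -1.66 ± 0.21 in control.

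The myosin heavy chains form a second developmental pair in heart. Myh6, the adult cardiac gene, was higher at 3w than at 1w by 0.84 ± 0.023 in KO and 1.34 ± 0.023 in control. It was lower in 3w KO (-0.36 ± 0.022) and higher in 1w KO (0.14 ± 0.022). Myh7, the slow and fetal gene, had 85.0 and 86.8 CPM in 3w KO, 123 and 118 CPM in 3w control, 101 CPM in each KO library at 1w, and 107 and 112 CPM in 1w control. It was lower in 3w KO (-0.49 ± 0.039) and at 1w (-0.11 ± 0.038), so its level in 3w KO lay on the other side of control from that of Tnni1. Between 3w and 1w it changed by -0.24 ± 0.039 in KO and by 0.13 ± 0.038 in control.

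Among the genes closest in pattern to Tnni1 over the 8 libraries, by Pearson's r of log2 CPM among 6853 genes with a mean of at least 10 CPM, were Gm6548 (0.9993), Kcne1 (0.9989), Creb5 (0.998) and Zmiz1 (0.9978). Kcne1, a potassium channel subunit, had 132 and 125 CPM in 3w KO and 87.5 and 81.1 CPM in 3w control, against 286 and 294 CPM in 1w KO and 322 and 312 CPM in 1w control. It followed the same order of groups over a far narrower range. Closest to Tnni3 were Ndufb8 (0.9995), Pik3r4 (0.999), Surf1 (0.9988), Atp5a1 (0.9985) and Ndufv1 (0.9985), of which Ndufb8, Atp5a1 and Ndufv1 encode subunits of the respiratory chain or ATP synthase. Ndufb8 had 291 and 284 CPM in 3w KO and 380 and 405 CPM in 3w control, against 184 and 183 CPM in 1w KO and 193 and 211 CPM in 1w control. An r above 0.95 was found for 646 genes with Tnni1 and 1104 genes with Tnni3. The libraries form 4 tight groups and share their scaling, so these values describe the order and spacing of groups.

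The nearest protein-coding neighbours had changes of their own. Lad1, between Tnni1 and Tnnt2, was not called in KO against control at either age and was lower at 3w than at 1w by -1.03 ± 0.11 in KO and -1.03 ± 0.10 in control. Phlda3, 10297 bases below Tnni1, was higher in 3w KO (2.13 ± 0.12) and at 1w (0.21 ± 0.082), the second opposite to Tnni1. Lsp1, which lies between Tnni2 and Tnnt3 and is known from white blood cells, was higher in KO by 1.16 ± 0.048 at 3w and 1.01 ± 0.047 at 1w. Syt8, the neighbour of Tnni2 on its other side, had 0 to 0.247 CPM. Nisch, which encloses Tnnc1, was not called in KO against control at either age.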

How the data were processed

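The values are 1 table of gene counts, which the authors deposited as whole numbers for 54752 Ensembl gene IDs in 8 libraries. Per the labels' protocols, total RNA from isolated cardiomyocytes was made into libraries with SMART and Nextera XT kits. Per the submitters' processing notes, FastQC, MultiQC, HISAT2, featureCounts and DESeq2 were used with mm10; for versions, strand setting and annotation, the value is not given in the sources used here. Names, spans and exon lengths came from GENCODE M21 (54723 IDs matched), and promoter windows from RefSeq.

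Genes were kept by edgeR's filterByExpr (minimum count 10, minimum total 15), which left 14665. Library sizes were scaled by TMM (factors 0.759 to 1.23), and all 4 groups shared 1 model (residual degrees of freedom 4), tested by the robust quasi-likelihood F-test of edgeR and Benjamini-Hochberg adjustment over all genes. The SE was derived from the F statistic. Shares are counts per kb of the exons of all annotated transcripts. They were tested by exact permutation of libraries, though no test is given for Tnnt3. For single libraries they have 95% Wilson intervals, which cover counting error only. The members of a group differed by more than sampling noise (chi-square per gene 1.45 to 6.40), so all libraries were kept. Each promoter window shown is the gene's first listed. The procedure was tested on simulated counts drawn with the spread fitted here. Such counts cannot show how the p-values behave if the spread between libraries of a group falls short of that between mice.

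All 8 troponin genes are named. The partners, kinases, isoform pairs and markers are fixed lists, of which the text gives counts, the called member with the largest rise and fall of at least 10 CPM, the nearest protein-coding neighbours, and the 5 genes closest in r (log2 CPM with a prior count of 2) to Tnni1 and to Tnni3, of which 1 is not reported here. Prkaca, Tpm1, Lmod1, Tmod4, Ppp1r1a, Prkcd, Pak1, Nppa, Bmp10, Myl7, Myl4, Sln and Myh2 were chosen after their values were seen. The members and lists were chosen with earlier results of these data known. Alternatives were other scalings and filters, DESeq2, limma-voom, a replicate block, an additive fit, fits of 2 groups, leaving out each library, and other gene lengths. Versions used were edgeR 4.0.16, DESeq2 1.42.0 and limma 3.58.1 under R 4.3.3.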

Additional observations from a re-analysis of the deposited data

Results flagged for a closer look

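The KO effect differed between the ages for 3 of the 5 troponin genes that passed the filter on low counts other than through KO alone, by the test of the difference itself in edgeR, where 35.6% of all genes tested passed. On the log2 scale the effect at 3w less that at 1w was 4.02 ± 0.18 for Tnni1 (adjusted p = 4.7e-27), -0.38 ± 0.049 for Tnni3 (adjusted p = 6.9e-06) and -0.25 ± 0.044 for Tnnt2 (adjusted p = 0.00017). For Tnnt2 it missed the threshold with limma-voom (adjusted p = 0.087) and with library totals alone (-0.094, adjusted p = 0.051, edgeR). Tnni1 was the member with KO below control in both libraries at 1w and above control in both at 3w, whereas Tnni3 and Tnnt2 kept 1 direction at both ages. Y-linked transcripts were present in KO at 1w and control at 3w and nearly absent in KO at 3w and control at 1w, so these differences cannot be told apart from 1 that runs with those transcripts. For Tnnt3, which passed the filter only through KO, the value is a description with no test: it was 2.44 ± 0.72, and 0.83 without the second control library at 1w. The difference passed for neither Tnni2 (-0.18 ± 0.27, adjusted p = 0.66) nor Tnnt1 (0.20 ± 0.11, adjusted p = 0.17), but passed for Tnnt1 without the second control library at 3w (0.34, adjusted p = 0.014).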

How the results depend on the processing

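The number of troponin genes called, here with Tnnt3 among them, stayed within 1.5 times of the main count under every alternative run. In the main fit 35.6 to 76.8% of all genes were called, by comparison, and Tnnt3 passed the filter only through KO. These counts therefore say little about the troponin genes. Over 125 alternatives for each gene, or 124 for Tnnt3, the direction and call were kept in 124 for Tnni1 and Tnni3, 122 for Tnni2 and Tnnt2, and 113 for Tnnt1 and Tnnt3. The signs that turned were those of Tnnt1, Tnnt3 and Tnni2. Tnnt1 in KO against control at 3w was 0.18 with library totals, 0.0028 without KO replicate 2 and 0.052 without control replicate 2 (against -0.24 without control replicate 1), and in the mean of both ages 0.0055 with library totals. Tnnt3 in 3w against 1w in control was 0.24 without 1w control replicate 2 and -1.90 without 1w control replicate 1, and in the mean over genotypes 0.50 in the additive fit, 0.65 and -0.42 without the same libraries and 0.015 with limma-voom. Tnni2 in the difference of KO effects was 0.13 without 1w KO replicate 1 and 0.0055 without 1w control replicate 1. Across all genes DESeq2 called 4043 against 6305 in KO against control at 1w and 3351 against 5215 in the difference of KO effects, and the additive fit 4506 against 7746. Library totals alone shifted the median of all genes by 0.25 in KO against control at 3w, 0.17 in the mean of both ages, 0.15 in the difference of KO effects and -0.50 in the mean over genotypes.

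Differences of the Tnni1 share kept their sign under every gene length. They are given here for KO against control at 1w, at 3w and in the mean of both ages, then for 3w against 1w in KO and in control. With raw counts they were -5.10, 0.104, -2.50, -13.7 and -18.9 points, with the longest transcript -2.63, 0.0442, -1.29, -6.32 and -9.00, and with the principal transcript, chosen after seeing the data, -4.33, 0.0827, -2.13, -11.2 and -15.6. With exons outside other spans, also chosen after seeing the data, 3w against 1w gave -8.03 in KO and -11.4 in control. Without 1 library the ranges were -3.51 to -3.25, 0.0540 to 0.0655, -1.73 to -1.59, -8.37 to -8.34 and -11.9 to -11.7. The share of troponin I in troponin I plus T differed between KO and control at 1w by -0.0275 points and turned to 0.181 with the longest transcript; leaving out 1 library gave -0.578 to 0.523, with 0.132 without KO replicate 2 and 0.523 without control replicate 2. Its difference between 3w and 1w was 3.51 in KO and 4.72 in control, and 2.14 and 2.87 with raw counts, 4.04 and 5.46 with the longest and 2.93 and 3.95 with the principal transcript. Without 1 library it was 3.26 to 3.76 in KO and 4.17 to 5.27 in control, and KO against control was -1.48 to -0.984 at 3w and -0.906 to -0.355 in the mean of both ages.

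Same-numbered libraries did not deviate together (correlations -0.022 to 0.0083). Their number goes with the postnatal day of injection (3 or 4 at 3w, 1 or 2 at 1w), an age and not a date. Same-numbered KO and control libraries of 1 age share that day, while those of different ages do not. With the number as a replicate block, Tnni1 in KO against control was 3.28 at 3w and -0.74 at 1w. The block changed no troponin call. It left 5 troponin genes called at 3w and 6 at 1w, counting Tnnt3, which passed the filter only through KO. Of all 14665 genes, the same fit called 7106 at 3w and 6172 at 1w, so the troponin totals say little. The depth limits Tnnt3 most, with 2 to 44 reads a library, and Tnni1 in control at 3w, with 21 and 7.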
